A study of Mus musculus with 9 samples.

Results

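Calca, Tgm1, Fam25c, Jam2, Smtnl1, Gc, Robo4 and Etl4 are 8 mouse genes with high signal in embryonic stem (ES) cells and little or none in germline stem (GS) cells. They were picked by name from the 14573 genes with a symbol, for a very large excess in ES over GS cells in these same arrays, so their ES levels are a description and carry no test. The 8 genes had 12 of the 39429 probes of the array. None of them was on a list of 20 naive pluripotency markers. GS cells are spermatogonial stem cells grown in culture from the postnatal mouse testis, and ES cells are the pluripotent cells of the early embryo. Total RNA was measured on 9 one-colour Agilent arrays, 1 for each sample: 3 of wildtype GS cells on a DBA/2 background, 3 of Xist knockout (KO) GS cells on a DBA/2 background, and 3 of wildtype ES cells on a C57BL/6 background. Cell type and strain therefore change together wherever ES cells are compared, and the labels name 1 line for each group, so a group cannot be told apart from its line. The labels do not say that the samples were separate cultures, so the p-values cover the spread between arrays, which may be technical. Age and agents added to the cells are not given in the sources used here.

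These genes are known from tissues other than the early embryo. Calca encodes calcitonin and, by alternative splicing, calcitonin gene-related peptide, which are secreted peptides of thyroid C cells and neurons. Gc encodes the vitamin D-binding protein of plasma, a member of the albumin family made by the liver. Jam2 encodes a junctional adhesion molecule of endothelial and epithelial contacts, and Robo4 encodes a Roundabout receptor of endothelial cells. Tgm1 encodes the transglutaminase that cross-links the cornified envelope of the epidermis. Smtnl1 encodes smoothelin-like protein 1 of muscle, and Etl4, enhancer trap locus 4, is known from vertebral column mutants. Fam25c belongs to a small gene family of little known function.

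The promoters were examined for letters that the genes might share. RefSeq promoter sequences of GRCm38.p6 held 10 entries for 7 of the 8 genes. Promoters of mammalian genes differ in how many CpG dinucleotides they keep, and CpG-poor promoters are typical of tissue-restricted genes. The 150 bases directly upstream of the start are shown for 6 genes, 5′ to 3′, because they span the range of CpG content, with every CpG in capitals.

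Gc, chr5:89457899-89458048, minus strand: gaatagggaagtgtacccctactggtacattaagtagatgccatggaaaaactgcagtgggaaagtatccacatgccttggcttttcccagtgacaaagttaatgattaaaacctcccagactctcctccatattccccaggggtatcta
Fam25c, chr14:34355394-34355543, minus strand: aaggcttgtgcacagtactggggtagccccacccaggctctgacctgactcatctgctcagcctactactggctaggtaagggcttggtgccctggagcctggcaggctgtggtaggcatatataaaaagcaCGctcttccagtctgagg
Robo4, chr9:37401822-37401971, plus strand: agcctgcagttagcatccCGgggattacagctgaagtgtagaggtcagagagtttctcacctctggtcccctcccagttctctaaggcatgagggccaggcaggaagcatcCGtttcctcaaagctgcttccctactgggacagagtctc
Calca, chr7:114636358-114636507, minus strand: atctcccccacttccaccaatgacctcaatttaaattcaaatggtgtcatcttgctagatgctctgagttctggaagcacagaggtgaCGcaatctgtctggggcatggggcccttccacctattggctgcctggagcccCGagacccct
Smtnl1, chr2:84822653-84822802, minus strand: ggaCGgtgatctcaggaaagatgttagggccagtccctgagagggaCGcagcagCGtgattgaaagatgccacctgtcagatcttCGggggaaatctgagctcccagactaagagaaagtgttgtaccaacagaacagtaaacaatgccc
Tgm1, chr14:55713493-55713642, minus strand: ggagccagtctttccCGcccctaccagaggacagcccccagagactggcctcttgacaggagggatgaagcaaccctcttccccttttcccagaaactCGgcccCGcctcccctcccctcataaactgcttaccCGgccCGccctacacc

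The window of Gc held no CpG, that of Fam25c held 1, those of Robo4 and Calca held 2 each, that of Smtnl1 held 4 and that of Tgm1 held 5. Over the 250 bases upstream of the start, the ratio of observed to expected CpG ran from 0 in Gc to 0.497 in Smtnl1, against a median of 0.374 over 32841 promoters. None of the motifs searched was common to the genes. Of 6 motifs searched on both strands, CCAAT was found in Calca at 2 places and in 1 promoter each of Etl4, Gc, Robo4 and Tgm1, and 33.9% of all promoters held it. TATAAA was found 29 bases upstream of the start in Fam25c and 219 bases upstream in 1 promoter of Etl4, and 12.4% of all promoters held it. GGGCGG was found at 2 places in 1 promoter of Tgm1 (32.7% of all), and CACGTG in 1 promoter of Etl4 (6.02% of all). The octamer ATGCAAAT (1.6% of all) and AAGGTCA (4.08% of all) were found in none of the 10. CpG was chosen for display after these searches.

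Markers were read as a check of the labels. The summed signal of the 20 naive pluripotency markers, in units of the array's 75th percentile, was 460 to 522 in ES cells and 26.9 to 35.7 over both GS groups, and all 20 were well above background on all ES arrays. Of the 20, 18 were called higher in ES than in wildtype GS and 1, Nanog, lower (-0.52 on the log2 scale, limma adjusted p = 0.0036), and 18 were also detected on all GS arrays of both groups. Of 16 spermatogonial stem cell markers, 11 were called lower in ES and 3 higher. The former included Nanos2 (at least 155-fold) and Ret (at least 75.7-fold), and the latter were Cdh1 (118-fold), Etv5 (3.28-fold) and Sall4 (1.55-fold). Of those 16, 11 were detected on all ES arrays and 1, Taf4b, on no array of any group. Xist, the targeted gene, was not well above background with either of its 2 probes on any of the 9 arrays, so it does not check the KO label. Between 52.3% of probes in ES replicate 1 and 73.1% in Xist KO GS replicate 1 were well above background, and replicates correlated at r = 0.9865 to 0.995 across features. The scanner files place all 3 wildtype GS samples and Xist KO GS replicate 1 on slide 1, Xist KO GS replicates 2 and 3 with ES replicates 1 and 2 on slide 2, and ES replicate 3 on slide 3. Wildtype GS and ES samples thus share no slide, so slide changes together with cell type in every comparison of these 2 groups. Fitting slide as a block links them only through the Xist KO GS arrays.

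Levels are given as log2 of the processed signal relative to the 75th percentile of the array, so 0 is that percentile's own level. Different probes are not set against each other on this scale. A probe was called well above background by the scanner software, and where none of a group's arrays reached that call the fold is a lower bound, written "at least". The bound sets the ES mean against the lowest signal that still counted as detected on each GS array, or the gene's own level where that was higher. All 8 genes were well above background on all 3 ES arrays with their brightest probe, and 6 of them on no GS array. Over the 8 brightest probes and the 6 GS arrays, 4 of 48 measurements were well above background, 3 of Smtnl1 and 1 of Robo4.

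**Figure D1:**
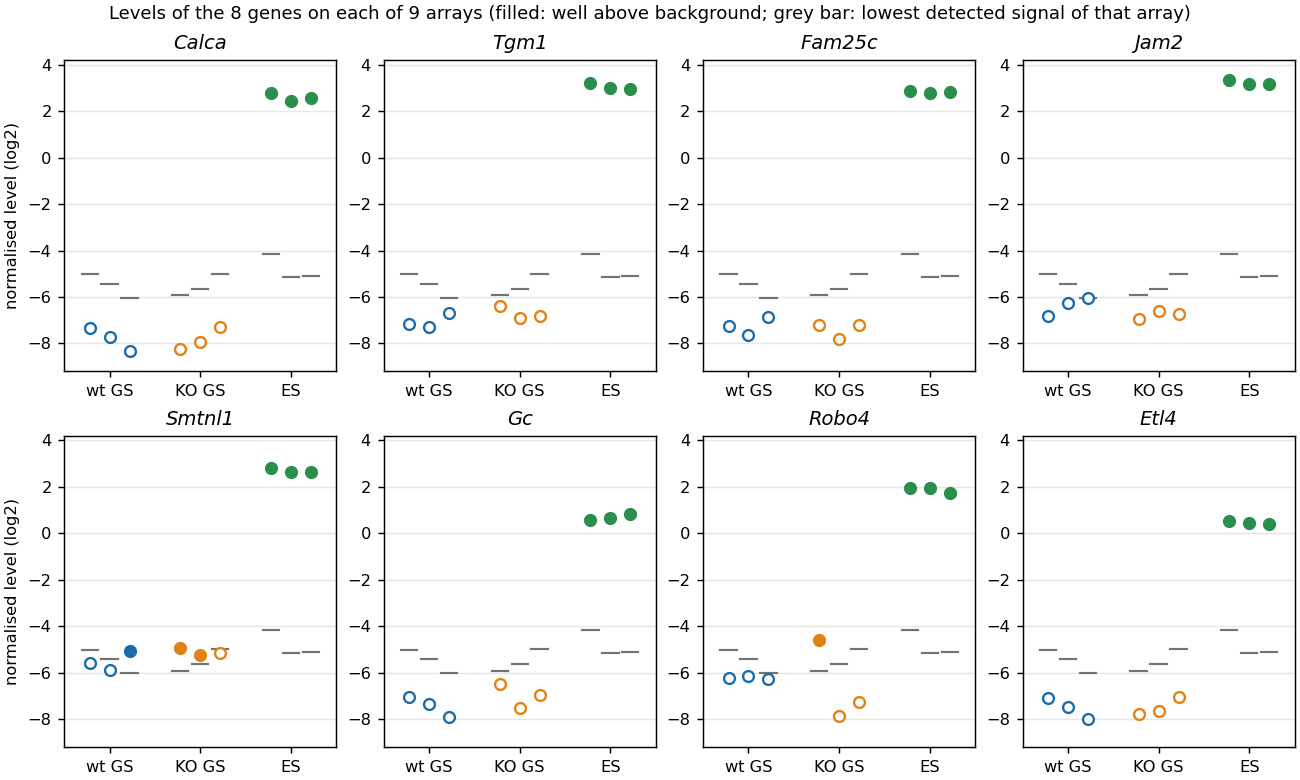
Normalised log2 level of the brightest probe of each of the 8 genes on each of the 9 arrays, with wildtype GS in blue, Xist KO GS in orange and ES in green. Filled points are well above background, open points are not, and grey bars mark the lowest detected signal of that array; all 3 ES points of every gene are filled, and among the GS points only 3 of Smtnl1 and 1 of Robo4 are.

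Of the secreted products, Calca read 2.78, 2.44 and 2.55 in ES replicates 1 to 3. Its wildtype GS levels were -7.32, -7.73 and -8.33, and its Xist KO GS levels were -8.22, -7.95 and -7.31. No GS array came within the detected range, and ES was at least 270-fold above wildtype GS and at least 275-fold above Xist KO GS. A second Calca probe, which the array design assigns to another RefSeq transcript, read -2.39, -2.74 and -2.72 in ES cells, also detected on all 3. On that probe ES exceeded wildtype GS at least 7.32-fold and Xist KO GS at least 7.47-fold. Which of the peptides each probe reports is not stated by the files.

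Gc was measured by a pair of probes that disagreed. The brighter one read 0.58, 0.66 and 0.84 in ES cells, against -7.05, -7.35 and -7.93 in wildtype GS and -6.47, -7.54 and -6.95 in Xist KO GS cells. This gave at least 72.4-fold over wildtype GS and at least 74-fold over Xist KO GS. The other Gc probe read -6.34, -4.38 and -5.66 in ES cells, -4.6, -5.59 and -6.19 in wildtype GS cells and -5.42, -5.37 and -5.5 in Xist KO GS cells. Its groups overlapped, with a measured ES minus wildtype GS difference of 0.0022 on the log2 scale, and it was well above background on 1 ES and 3 GS arrays. The excess of Gc thus rests on 1 of its probes, and the cause of the disagreement was not tested.

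Among the surface proteins, Jam2 had the largest bound of the 8. It read 3.34, 3.16 and 3.18 in ES cells, -6.82, -6.24 and -6.05 in wildtype GS cells and -6.94, -6.61 and -6.72 in Xist KO GS cells. That is at least 419-fold over wildtype GS and at least 428-fold over Xist KO GS.

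Robo4 read 1.94, 1.94 and 1.72 in ES cells and -6.25, -6.13 and -6.29 in wildtype GS cells, at least a 164-fold excess. In Xist KO GS cells it read -4.59, -7.86 and -7.26, and only replicate 1 was well above background. With that array left out, the ES excess over Xist KO GS was at least 146-fold, and no fold is given for the whole group because its mean lay below the detected range. Its spread among the Xist KO GS arrays, a standard deviation of 1.74, was the widest of the 8 brightest probes, against 0.082 in wildtype GS.

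Of the intracellular proteins, Tgm1 read 3.23, 3 and 2.96 in ES cells. The wildtype GS levels were -7.18, -7.27 and -6.68 and the Xist KO GS levels -6.37, -6.92 and -6.83, none of them detected. The bounds were 375-fold over wildtype GS and 383-fold over Xist KO GS.

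Smtnl1 alone of the 8 had detected signal in both GS groups with its brightest probe. It read 2.82, 2.65 and 2.63 in ES cells, -5.57, -5.89 and -5.07 in wildtype GS cells and -4.92, -5.25 and -5.15 in Xist KO GS cells. It was well above background in wildtype GS replicate 3 and in Xist KO GS replicates 1 and 2. The folds were 297 over wildtype GS and 224 over Xist KO GS. The wildtype GS mean, -5.51, lay at the edge of the detected range of those arrays (lowest detected signals -5.01, -5.42 and -6.03). The fold of 297 is therefore approximate.

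Etl4 had 3 probes, all detected on all 3 ES arrays and on no GS array. The brightest read 0.51, 0.46 and 0.41 in ES cells, with GS levels between -7.99 and -7.05, and gave the smallest bounds of the 8, 61.7-fold over wildtype GS and 63-fold over Xist KO GS. The other Etl4 probes gave at least 47.2-fold and at least 16.5-fold over wildtype GS. By the value that placed each gene, a bound for Etl4, the gene listed just above it was Pou5f1, a pluripotency factor measured at 61.8-fold, and the one just below was Dnmt3l, a DNA methyltransferase cofactor at 61-fold. A bound has no place among measured folds, so this only locates the edge of the choice.

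Fam25c read 2.89, 2.8 and 2.82 in ES cells and lay between -7.81 and -6.86 on the 6 GS arrays, none of them detected. It was at least 321-fold above wildtype GS and at least 327-fold above Xist KO GS. Its ES replicates were close, with a coefficient of variation of 3.4% in normalised signal. The brightest Etl4 probe was about as close (3.44%), another Etl4 probe was closer (2.73%), and Calca had 12%.

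**Figure D2:**
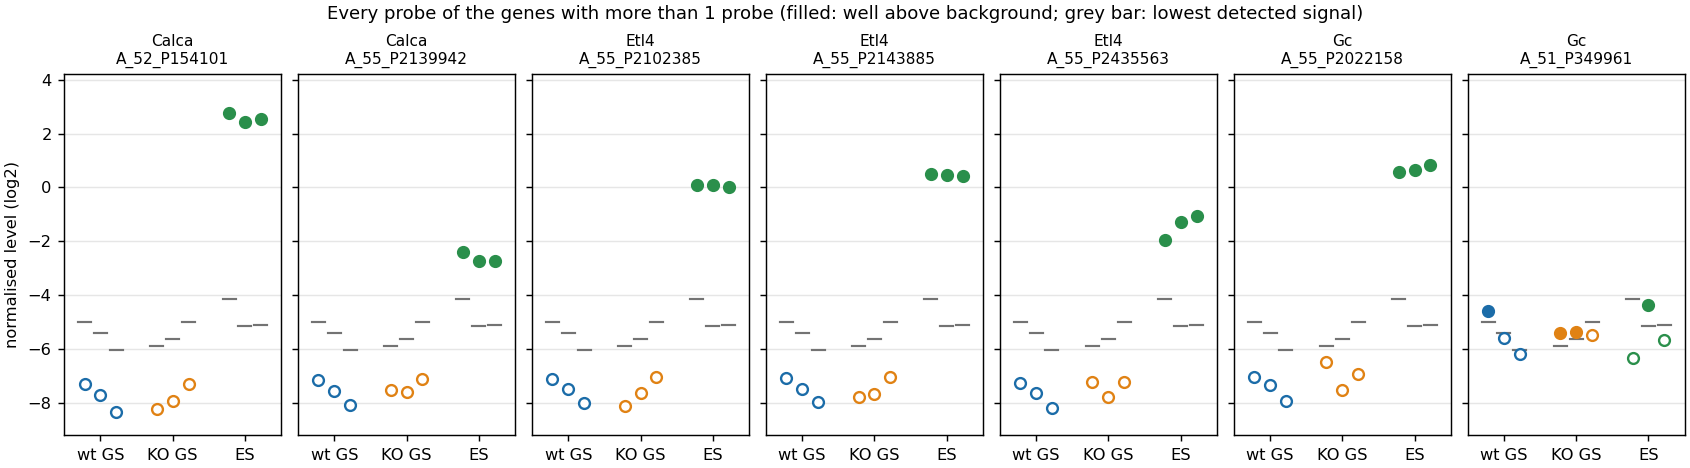
Normalised log2 level on each array for all 7 probes of the 3 genes with more than 1 probe, drawn as open or filled by detection, with grey bars at the lowest detected signal. Both Calca probes and all 3 Etl4 probes stand above every GS array in ES cells, whereas the groups overlap on one Gc probe.

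Slide 2 holds 2 ES and 2 Xist KO GS samples, which allowed the excess to be read within 1 slide. There it was at least 380-fold for Jam2, 346-fold for Tgm1, 287-fold for Fam25c, 243-fold for Calca, 153-fold for Robo4, 61.3-fold for Gc and 55.9-fold for Etl4, and measured 245-fold for Smtnl1. These are again values of the contrast the genes were chosen on, and the other Gc probe read 1.05-fold there.

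The comparison of Xist KO GS with wildtype GS cells was the one that the choice of these genes did not use, but it could show little here. None of the 8 brightest probes was well above background on all arrays of either GS group, so all 8 entered the fit only through their ES signal, and 6 were detected on no GS array. In limma's test with Benjamini-Hochberg adjustment over 21052 features 0 of the 8 were called, and 0 had an unadjusted p under 0.05, where 0.0238% of all features (5 of them) were called. With most of these values below the detected range the count says little, and it does not show that they were alike in both GS groups. Smtnl1 was detected on 1 wildtype GS and 2 Xist KO GS arrays, with a difference of 0.41 on the log2 scale (standard error 0.197, limma adjusted p = 0.429). Robo4 was detected on no wildtype GS and 1 Xist KO GS array, and no difference could be read for it or for the other 6.

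Other genes were ranked by how close their mean-centred log2 levels over the 9 arrays lay to those of each gene, as a root mean square distance. The nearest were Nr0b1, a nuclear receptor, for Tgm1 (0.317), Fam25c (0.359) and Jam2 (0.363), Rhox5, a homeobox gene, for Calca (0.676), Laptm5 for Smtnl1 (0.264), Chrna9 for Gc (0.212), Stmn2 for Robo4 (0.755) and Reg2 for Etl4 (0.0753). Genes chosen for ES excess lie close to other ES-high genes by construction. On the GS arrays the levels of 6 of the 8 genes and of Nr0b1 were below the detected range, so the order among near genes carries no weight.

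Relatives were listed for Calca, Tgm1, Jam2, Smtnl1, Gc and Robo4, and not for Fam25c or Etl4. The question of whether they were high in ES cells too was addressed with 6 lists of 85 genes. Of these, 62 were tested, 21 were not well above background throughout any group and 2 had no probe. Against wildtype GS, 28 were higher and 27 lower in ES cells, 88.7% in all, where 76.3% of all features and 79.4% of protein-coding genes with a symbol were called. The share higher was 45.2%, against 39.7% of all features and 40.3% of protein-coding genes, of which 39.1% were lower, and the median difference was -0.005 on the log2 scale, against 0.0765 over all features. Against Xist KO GS the counts were again 28 and 27, where 74.3% of all features (37.2% higher and 37.1% lower) and 77.7% of protein-coding genes (38.0% higher and 39.7% lower) were called. Relatives of these 6 genes therefore split in both directions, and 0 of 62 were called between the GS groups by limma. In the sentences that follow, each difference is ES minus wildtype GS, its adjusted p is limma's, and every relative named as higher or lower was called in the same direction against Xist KO GS, except Ramp1. Some of these calls are lost under other settings, as given here or beside the gene. Against Xist KO GS, Mylk, Ppp1r12b and Vdr also lost their calls with normexp, and Rxra with the mean of its probes (adjusted p = 0.617). Ppl lost its call there with slide as a fixed block (adjusted p = 0.0615), within one slide (0.105) and without Xist KO GS replicate 1 (0.0536).

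In the calcitonin family, 2 of 6 tested genes were higher and 4 lower, and Calcb, Calcr, Calcrl and Iapp were not detected throughout any group. Adm2, the peptide adrenomedullin 2, rose by 4.49 ± 0.196 (SE, adjusted p = 1.31e-07), and Crcp, the CGRP receptor component, by 0.86 ± 0.0984. Ramp1, Ramp2 and Ramp3 are accessory proteins that set which of these peptides the shared receptor answers to. Ramp3 fell by 2.28 ± 0.19 (SE, adjusted p = 6.57e-06) and Ramp2 fell by 1.93 ± 0.138. Ramp1, which makes it a CGRP receptor, was -0.44 ± 0.174 (adjusted p = 0.0468) against wildtype GS and -0.019 (adjusted p = 0.925, not called) against Xist KO GS, and a second Ramp1 probe read -2.34 against wildtype GS. Adm, adrenomedullin, fell by 1.93 ± 0.239, and its call against Xist KO GS was lost with normexp (adjusted p = 0.174). The 10 neuronal and neuroendocrine markers summed to 13.1 to 15 in ES cells against 6.22 to 7.62 over both GS groups. Of these, 4 were called higher in ES cells, led by Tubb3 (60.2-fold) and Nefl (43.9-fold), and 1, Snap25, lower, while Map2, Chgb, Scg2 and Calb2 were detected on no ES array, Scg2 and Calb2 on no GS array either. The part of that sum in the level of Calca was not tested.

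In the transglutaminase and cornified envelope list, 4 of 11 tested genes were higher and 4 lower. Tchh, trichohyalin, a substrate of transglutaminases in hair follicles, was below background in both GS groups and at least 25.3-fold higher in ES cells (adjusted p = 1.47e-06). Cdsn, the corneodesmosome protein, rose by 2.36 ± 0.198, and Ppl, periplakin, by 1.12 ± 0.303 (SE, adjusted p = 0.0087), a call lost with slide as a fixed block (adjusted p = 0.422). Tgm2, the widely expressed transglutaminase, fell by 1.48 ± 0.101 (adjusted p = 1.83e-06). Tgm3 was not called with its brightest probe (0.13, adjusted p = 0.249), whereas its other probe was called higher, at 2.43. Aloxe3 and Alox12b, lipoxygenases of the epidermal barrier, differed by -3.29 ± 0.0956 and -2.56 ± 0.299, and a second Alox12b probe was called 0.44 higher. The other transglutaminases Tgm4, Tgm5, Tgm7, F13a1 and Epb42 and the envelope protein Ivl were not detected throughout any group. The summed signal of 12 keratinocyte markers was 3.64 to 4.59 in ES cells and 5.18 to 6.53 over both GS groups, with 2 called higher in ES (Sfn 4.03-fold, Perp 1.98-fold) and 3 lower. Krt15, Dsg3 and Ivl were detected on none of the 9 arrays.

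In the junction list, 9 of 19 tested genes were higher and 8 lower. Cdh1, E-cadherin, had a mean level of -3.94 (SD 0.16) on the 3 wildtype GS arrays and 2.95 (SD 0.034) on the 3 ES arrays, 118-fold. Cldn4, a claudin, rose 7.09-fold with its brightest probe (2.83 on the log2 scale) and by 6.04 with its other probe, and by 4.43 with the mean of both. Esam, an endothelial adhesion molecule related to the junctional adhesion molecules, was at least 7.37-fold higher. Ocln, occludin, and Marveld2, tricellulin, fell by 2.81 ± 0.0963 and 2.86 ± 0.138. Igsf5, another junctional adhesion molecule, was at least 5.84-fold lower in ES cells. A second Igsf5 probe was not called. Cxadr, also of this list, had probes called in opposite directions, from -2.17 to 0.48.

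In the smoothelin and smooth muscle list, 8 of 12 tested genes were higher and 3 lower, with a median difference of 1.81. Smtnl2, a paralogue of Smtnl1, rose by 3.02 ± 0.112 (SE, adjusted p = 5.21e-08). Cnn1, calponin, rose by 4.10 ± 0.256, and Des, the muscle intermediate filament desmin, was at least 6.41-fold higher. Mylk, myosin light chain kinase, fell by 2.48 ± 0.441 (adjusted p = 0.000847), was detected on 1 of 3 ES arrays, and lost its call with normexp background correction (adjusted p = 0.171) and with slide as a fixed block (adjusted p = 0.0686). Ppp1r12b and Ppp1r12a, subunits of myosin phosphatase, differed by -1.02 ± 0.137 and -0.97 ± 0.145, and the Ppp1r12b call was lost with normexp (-0.047, adjusted p = 0.816). The summed signal of 14 fibroblast markers, which include the smooth muscle gene Acta2, was 105 to 116 in ES cells, 77.3 to 82.8 in wildtype GS and 62.2 to 66.6 in Xist KO GS, with 4 called higher and 6 lower against wildtype GS, and its part in these differences was not tested. Skeletal muscle markers summed to 1.16 to 1.34 in ES cells against 2.05 to 2.91 in GS cells, with 2 called higher in ES (Acta1 8-fold and Des) and 2 lower (Myh3 and Myog). Myod1, Myog, Myf5 and Myf6 were detected on no ES array, and Myf5 on no array at all.

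In the albumin and vitamin D list, 3 of 7 tested genes were higher and 3 lower, and Alb and Afm were not detected throughout any group. Afp, alpha-fetoprotein, the other albumin family gene that could be tested, went the opposite way to Gc: it read 2.52 ± 0.13 in wildtype GS and 2.82 ± 0.1 in Xist KO GS cells (mean ± SD, n = 3), and was below background in ES cells, at least 160-fold lower. Lrp2, megalin, the receptor that takes up the vitamin D-binding protein, was at least 23.9-fold higher in ES cells, whereas its partner Cubn, cubilin, fell by 4.02 ± 0.203 (SE, adjusted p = 2.93e-07). The vitamin D receptor Vdr was at least 3.45-fold lower, a call lost with normexp (adjusted p = 0.0966). Cyp27b1, which activates vitamin D, rose by 1.19 ± 0.16, and Rxra, its receptor's partner, by 0.99 ± 0.122, with a second Rxra probe called 0.66 lower and no call for the mean of both (0.16, adjusted p = 0.296). The 15 endoderm and liver markers summed to 0.65 to 0.817 in ES cells against 13.5 to 17.8 in GS cells, with 3 called higher in ES (Sox7 at least 5.09-fold, Hnf4a at least 3.2-fold, Amn 1.35-fold) and 5 lower. Afp, Foxa2, Pdgfra and Apob were detected on no ES array, and Alb, Ttr and Apoa1 on none of the 9 arrays.

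In the Robo and Slit list, 2 of 7 tested genes were higher and 5 lower, with a median of -2.13. That median is the value of Srgap3, counted as lower, whose 3 probes included 2 called in opposite directions, from -2.13 to 0.51. Robo1, a neuronal guidance receptor, had a mean level of 0.93 (SD 0.014) on the wildtype GS arrays and -3.49 (SD 0.2) on the ES arrays, 21.4-fold lower. The ligands Slit3 and Slit1 fell by 4.40 ± 0.112 and 2.68 ± 0.178. Unc5b, the binding partner of Robo4 on endothelial cells, rose by 0.85 ± 0.128 (SE, adjusted p = 0.000307), and Srgap2, a GTPase-activating protein downstream of Robo receptors, by 0.57 ± 0.143. The Srgap2 call against Xist KO GS (0.42, adjusted p = 0.025) was lost within one slide (adjusted p = 0.0514) and with any of 4 samples left out. It was also lost with no filter on dim probes (adjusted p = 0.0521) and with only the 2 groups compared (adjusted p = 0.0542). Robo2, Robo3 and Slit2 were not detected throughout any group. The 14 endothelial markers summed to 30.5 to 42.1 in ES cells, 20.2 to 22 in wildtype GS and 21 to 32.4 in Xist KO GS, with 6 called higher in ES against wildtype GS and 3 lower. The former were Esam (at least 7.37-fold), Eng (6.56-fold), Cldn5 (4.6-fold), Pecam1 (3.5-fold), Egfl7 (1.7-fold) and Kdr (1.56-fold). Egfl7 and Kdr had the highest ES mean levels of the list, 4.48 and 3.36, and so weigh most in the sum. Egfl7 was not called against Xist KO GS (limma adjusted p = 0.0512). Of the 14, 8 were detected on all ES arrays. Cdh5, Tek and Erg were detected on no ES array, and Tie1 and Sox18 on none of the 9. The part of this higher sum in the levels of Robo4, Jam2 and Esam was not tested.

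**Figure D3:**
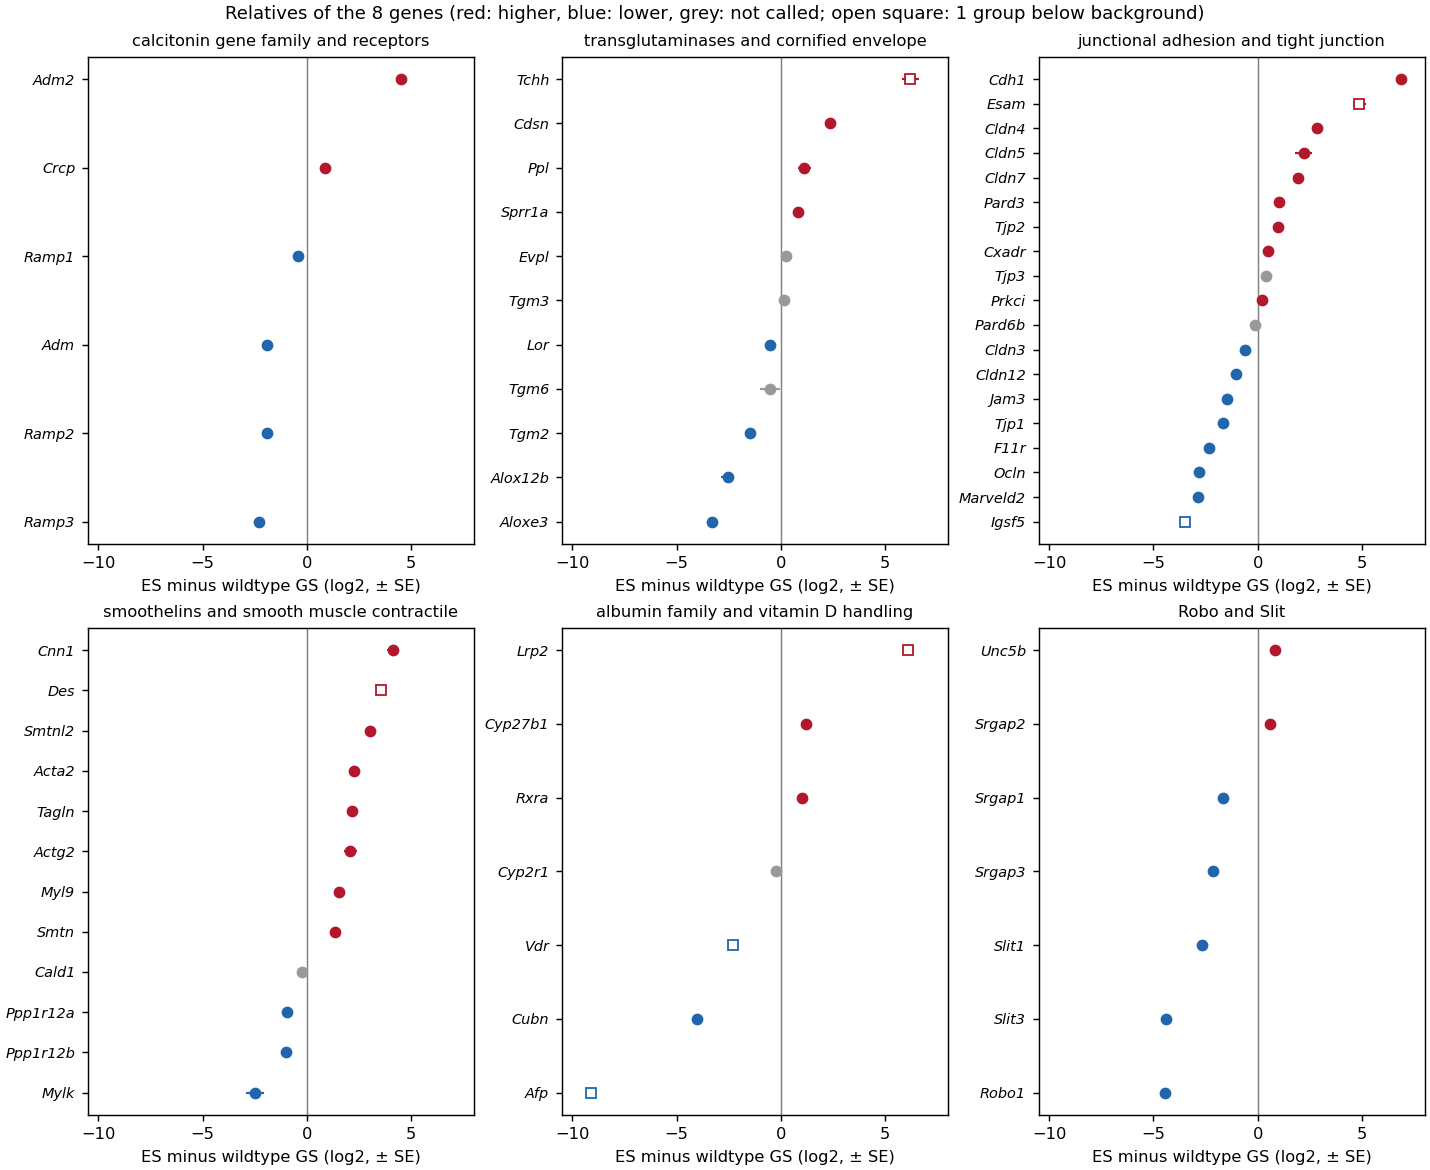
ES minus wildtype GS difference (log2, x axis) with its standard error for the 62 tested relatives, 1 panel for each of 6 lists, in red where higher, blue where lower and grey where not called, with open squares where 1 group was below background. Both colours appear in all 6 panels, from Robo1 and Slit3 at the low end of the Robo and Slit panel to Cdh1 at the high end of the junction panel.

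The nearest measured genes on the chromosome, 2 on each side of every gene, were read in the same way. Of the 32 neighbours, 20 were higher and 4 lower in ES cells than in wildtype GS, the first being 62.5% of them, where 39.7% and 36.6% of all features were called. Against Xist KO GS 20 were higher and 5 lower. Neighbours at 1 locus are not independent of each other, and no test was made of this share. It varied by locus. Against wildtype GS, all 4 neighbours were higher for Tgm1, Fam25c and Jam2, 3 of 4 for Smtnl1 and Robo4, and 1 of 4 for Calca and Etl4. None of the 4 neighbours of Gc was called against wildtype GS, with differences between -0.3 and 0.063. Called against Xist KO GS only were Dck beside Gc, lower (-0.66, limma adjusted p = 0.00136), and Insc beside Calca, higher (limma adjusted p = 0.0326).

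Mmrn2, an endothelial matrix protein beside Fam25c, rose by 3.38 ± 0.203, and Ube2l6, a ubiquitin-like conjugating enzyme beside Smtnl1, by 3.29 ± 0.118. Esam, beside Robo4, was at least 7.37-fold higher. Tinf2, a telomere protein beside Tgm1, rose by 1.51 ± 0.0857, and Atp5j, an ATP synthase subunit beside Jam2, by 1.34 ± 0.117. Pde3b beside Calca fell by 1.04 ± 0.115, Serping1 beside Smtnl1 fell by 1.5 ± 0.11, and Enkur beside Etl4 was at least 16.1-fold lower in ES cells. The gene 1110004F10Rik beside Calca rose by 0.91 ± 0.0988 (SE, log2 ES minus wildtype GS), and 4921504E06Rik beside Etl4 rose by 0.67 ± 0.244 against wildtype GS but was not called against Xist KO GS. Its wildtype GS call was lost with slide as a fixed block (adjusted p = 0.215) and with the replicate block (adjusted p = 0.0602), and a call against Xist KO GS appeared with quantile normalization (adjusted p = 0.00818). The Atp5j call against wildtype GS was lost with the authors' values (adjusted p = 0.0703).

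**Figure D4:**
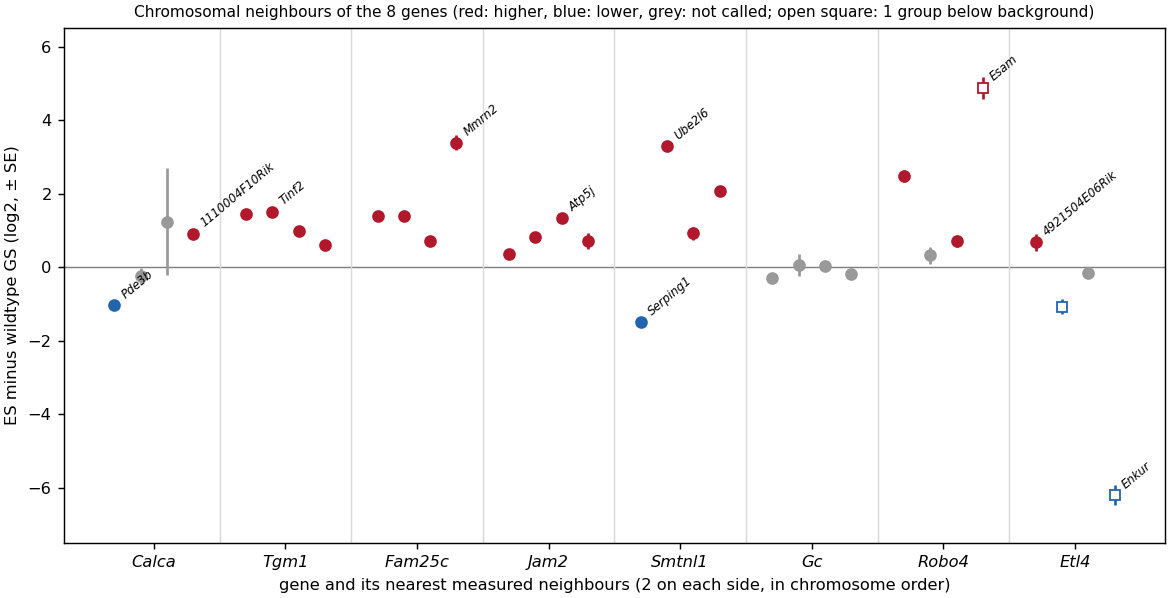
ES minus wildtype GS difference (log2, y axis) with its standard error for the 4 nearest measured neighbours of each of the 8 genes, in chromosome order, coloured by call with open squares where 1 group was below background. The Tgm1, Fam25c and Jam2 columns hold only red points, and the Gc column holds only grey ones.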

How the data were processed

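RNA from 9 samples was read on 1-colour arrays. The deposited spot intensity values were, per the file headers, extracted and background-subtracted with version 11.0.1.1 of Agilent Feature Extraction. The authors' deposited table of processed intensity values has near-equal array medians, and how it was made is not stated in the labels or headers.

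From the scanner values, log2 of the processed signal minus each array's 75th percentile was computed. Flagged spots (157 to 327 of 43020 per array) were dropped and spots of a probe averaged. RefSeq GRCm38.p6 gave a symbol to 26055 of 39429 probes. A probe was kept when 1 or more groups had it well above background on all their measured arrays (25667). A probe counted as well above background on an array when most of its spots did. This was chosen over letting ties count (25671 probes) or requiring all spots (25656) because it gave the count of an earlier analysis. A gene was represented by its brightest kept probe, giving 21052 features. Bounds use that probe's own detection. This was settled after the Gc probes were seen to disagree, and Gc would otherwise read 8.14 on the log2 scale over wildtype GS in place of a bound of 6.18.

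Groups were compared with limma 3.58.1 in R 4.3.3 (lmFit and eBayes, all 9 arrays, 2-sided, 6 residual and 2.21 prior degrees of freedom) and called at a Benjamini-Hochberg adjusted p under 0.05. The script was tested on simulated data. The members and lists were chosen with earlier results of these data known. Relatives named are up to 3 called per list and direction with the largest difference. Neighbours named are the called one with the largest difference per gene and direction, a rule set after values were seen, and genes named for other reasons (disagreeing probes, undetected members) were also chosen after their values were seen. The array number limits precision. Alternatives were other normalizations, normexp on the median signals (chosen after seeing the files, which have no mean signals), the authors' table, dim-probe filters, the mean of probes, slide and replicate blocks, other moderation, and leaving out each sample. Normexp added an offset of 50 to every signal, which by itself lowers the folds of dim genes.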

Additional observations from a re-analysis of the deposited data

How the results depend on the processing

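Between Xist KO GS and wildtype GS cells, 5 features were called, and 11 with quantile normalization, 11 with the authors' values, 3 with no filter on dim probes, 3 with slide as a fixed block, 2 within one slide, 3 with the replicate block, 3 with only the 2 groups compared and 12 with trended and robust moderation. Leaving out a sample in turn gave 3 to 18, with 18 without Xist KO GS replicate 1. Of the 8 genes 0 were called in each of these, and the strict filter left none to test. The cause of these changes was not tested. Replicate numbers did not show a pairing: deviations of same-numbered samples correlated at -0.15 to 0.042 over 9 pairs. In both other groups, 0 of 9 samples correlated best with their own number. The fitted Robo4 value between GS groups was -0.34, but Robo4 was detected on only 1 of the 6 arrays, so it is not read as a difference. The fitted value became 0.19 with normexp, 1.64 with slide as a fixed block and 1.64 within one slide. With a sample left out it ran from -1.33 to 0.30, including 0.0011 without Xist KO GS replicate 3. These shifts and changes of sign are of signal mostly below the detected range, and no conclusion is drawn from them. Over all 8 genes, 25 of 168 such alternative values changed sign and 0 were called; the values of the 6 undetected genes are not printed because both groups were below background. The ES excess that the 8 genes were chosen on was recomputed for the brightest probe in 15 alternatives over wildtype GS, as a description only. Left out were the mean of probes, the slide and replicate blocks and trended moderation, and a bound under 1 would have been dropped. Normexp lowered the excess most, to 102-fold for Jam2, 89.9 for Tgm1, 82.1 for Fam25c and 71.5 for Calca over wildtype GS. Smtnl1 came to 66.7, Robo4 to 40.5, Gc to 16.4 and Etl4 to 16. Of 3341 alternative values for relatives and neighbours called between ES and either GS group, 3218 kept call and direction, 113 lost the call and 10 changed sign. Those 10 were of Cxadr (-0.85 against wildtype GS with the mean of its probes, itself called), Lor, Otud1, Pard6b and Prkci, which are counted in the tallies of relatives or neighbours. The split of neighbours, 20 higher and 4 lower, was 19 and 6 with quantile normalization and 22 and 3 with normexp, where the share of all called features that were higher was 52% in the main scaling, 48.2% and 63%. With slide as a fixed block 16 neighbours were higher and 4 lower. The 16 were 50% of those tested, against 30.1% of all features. Relatives were then 23 higher and 24 lower. The median of all features moved from 0.076 to 0.35 with median scaling.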
